A study of Homo sapiens with 12 samples.

Results

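The NF-kB factors, with the cytokines, chemokines and other genes that they are known to drive, were read across 4 groups of triple-negative breast cancer cells. The gene set held 38 members by name: 5 factor subunits, 5 inhibitors and nuclear IkB proteins, 7 feedback and adaptor genes, 10 cytokines, 7 chemokines and 4 surface and enzyme targets. A member was taken up where a probe of the deposited value table carried its symbol and no other. That held for 35 of the 38 members (49 probes), and BIRC3, TRAF2 and CSF2 had no such probe. The single probe of TNF, the cytokine that gives several members their names, lay at the array background on every array of both lines, with group means of 6.47 and 6.45 in MDA-MB-231 (everolimus and DMSO) and 6.55 in both BT-549 groups. TNF was kept apart, and 34 members were tested among 11764 genes.

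The samples were total RNA of MDA-MB-231 and BT-549, established human lines that the labels describe as triple-negative. The 4 groups were MDA-MB-231 with everolimus, MDA-MB-231 with DMSO, BT-549 with everolimus and BT-549 with DMSO, each after 48 h and each with 3 bead arrays (replicates 1, 2 and 3). Everolimus was dosed at 10 uM, and DMSO was the vehicle. Everolimus is a rapamycin analogue that inhibits the mTOR kinase, and the series as a whole asked how mTOR inhibitors bear on homologous recombination and the response to PARP inhibitors in such cells. Each line stands for 1 tumour, and the labels do not say whether the arrays of a group came from separate cultures, so every p-value reflects array-to-array spread that may be technical. Since a culture was read as a whole, fewer cells making a transcript and less of it per cell cannot be told apart.

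NF-kB is a family of dimeric transcription factors that rests in the cytoplasm bound to IkB proteins. In the canonical arm a kinase complex marks the IkB proteins for destruction, which frees dimers of RELA or REL with the product of NFKB1. In the noncanonical arm the precursor made from NFKB2 is processed and pairs with RELB. The dimers bind kappaB sites near cytokine, chemokine, adhesion and protease genes, and also near the genes of their own subunits and inhibitors, so that the pathway feeds back on itself. In breast cancer cells these secreted products are known for drawing in leukocytes and for remodelling the matrix.

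The kappaB consensus, a site of 10 bases, was searched on both strands of the 250 bases before the RefSeq transcript starts of the members (build GRCh38.p14). Windows were at hand for 30 of the 38 members, and 15 of those 30 genes (50.0%) held a match, against 3221 of 27305 genes (11.8%) in the whole table. Counted by window, 17 of 42 member windows (40.5%) held a match, against 3498 of 35116 windows (9.96%). The members were listed for their known ties to NF-kB, so an excess over all genes is built into the list and is no result of these arrays. The last 120 bases before the start of 5 members with a match, chosen by hand, are shown as examples. Of these, TNFAIP3 and TNIP1 were called under everolimus in BT-549 over all 12 arrays, and CCL20, IL6 and CXCL1 were not. Capitals mark the match, which is a description of the letters and not a mapped binding site.
CCL20, chr2:227813722-227813841, plus strand: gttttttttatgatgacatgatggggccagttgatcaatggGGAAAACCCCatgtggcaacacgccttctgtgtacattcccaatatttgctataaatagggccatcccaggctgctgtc
IL6, chr7:22727080-22727199, plus strand: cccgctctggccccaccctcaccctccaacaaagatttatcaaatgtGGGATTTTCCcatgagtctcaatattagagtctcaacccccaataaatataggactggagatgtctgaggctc
TNFAIP3, chr6:137867139-137867258, plus strand: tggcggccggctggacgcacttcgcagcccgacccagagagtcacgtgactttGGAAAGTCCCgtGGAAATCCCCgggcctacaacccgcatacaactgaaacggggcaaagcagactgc
TNIP1, chr5:151081035-151081154, minus strand: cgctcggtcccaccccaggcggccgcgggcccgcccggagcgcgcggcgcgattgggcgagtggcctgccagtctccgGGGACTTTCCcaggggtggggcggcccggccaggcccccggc
CXCL1, chr4:73869273-73869392, plus strand: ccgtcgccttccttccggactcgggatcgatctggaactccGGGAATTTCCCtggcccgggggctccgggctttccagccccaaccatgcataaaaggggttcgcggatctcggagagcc

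TNFAIP3 held 2 separate matches in this stretch, and CXCL1 held 2 that overlap on opposite strands. The same GGGAATTTCC stood before CXCL2, CXCL3, NFKB1, NFKBIB and NFKBIZ. The windows of NFKB2 held several matches, among them GGGAATTCCC, GGGGCTTTCC and GGGACTTTCC. The windows of BCL3, CXCL8, PTGS2 and TRAF1 held none, which says only that these letters were not in those windows.

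Values are log2 signals, quantile normalized between arrays as deposited. A probe was read as above background over a floor of 6.77, and no level was set against that of another probe. On any array 9840 to 10360 of the 11764 genes lay above the floor, and arrays of a group correlated at r = 0.927 to 0.995. In every group replicate 1 lay furthest from its group mean. The lines were checked against markers. VIM, the mesenchymal filament, averaged 13.73 to 14.32 in the 4 groups. KRT8 lay above the floor on every MDA-MB-231 array and on 1 BT-549 array, and CDH2 was above it in BT-549 alone. The 7 epithelial markers, KRT8 among them, averaged 7.67 to 7.96 on MDA-MB-231 arrays and 6.54 to 6.74, at background, on BT-549 arrays. Of the receptors that define triple-negative cells, ESR1 was at background on all 12 arrays, PGR was above the floor on 1 array, and ERBB2 was above it on all 12. Of the 7 leukocyte markers, 4 had a probe above the floor on at least 3 of 12 arrays, while PTPRC was above it on 1 array and CD3E on none. Of the 3 endothelial markers, 1 (VWF) had such a probe, and CDH5 was above the floor on no array. The 6 leukocyte markers with a probe averaged 7.0 to 7.57 on BT-549 everolimus arrays, against 7.04 to 7.16 on BT-549 DMSO arrays, and 7.59 to 7.82 on MDA-MB-231 everolimus arrays, against 7.53 to 7.69 on MDA-MB-231 DMSO arrays. The 5 fibroblast markers averaged 7.33 to 7.76 on BT-549 everolimus arrays, against 8.21 to 8.31 on BT-549 DMSO arrays. Limma called the collagens COL1A1 and COL3A1 lower there (-1.65 and -2.04, adjusted p = 0.00231 and 0.0193), and DCN, LUM and PDGFRB were at or near background. The 3 endothelial markers averaged 6.50 to 7.16 on BT-549 everolimus arrays, against 6.56 to 6.64 on BT-549 DMSO arrays. VWF averaged 7.65 under everolimus and 6.54, at background, under DMSO there, and CD68, a leukocyte marker, 10.30 and 8.94 (limma adjusted p = 0.0733 and 0.152). The part of these markers in the results was not tested.

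In BT-549 under everolimus, RNAs of the noncanonical subunits RELB and NFKB2, of the feedback genes TNIP1, TNFAIP3 and TRAF1 and of the cytokine LIF rose, while BCL3 fell. Limma called these 7 of the 34 members (20.6%) at an adjusted p under 0.05, against 16.8% of all genes tested. At an unadjusted p under 0.05 there were 12, against 31.6% of all genes. Higher calls numbered 6, against 9.54% of all genes, and the single lower call stood against 7.23%. The median effect over the members was 0.30 on the log2 scale, against 0.04 over all genes, and 25 of the 34 lay above 0, as did 55% of all genes. With the medians of the arrays made equal, which moved them by up to 0.07, the member median was 0.23 against -0.03 over all genes, and 20 of the 34 lay above 0.

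Among the factor subunits, RELB, the partner of the processed NFKB2 product, read 8.42, 10.16 and 10.15 on the 3 everolimus arrays of BT-549, against 7.28, 7.85 and 8.04 on the 3 DMSO arrays. Every everolimus array lay above every DMSO array, and everolimus replicate 1 lay closest to the DMSO arrays. The effect was 1.85 on the log2 scale (SE 0.40, limma adjusted p = 0.012), a 3.61-fold rise. NFKB2 read 8.53, 9.60 and 9.81 under everolimus, against 7.32, 7.77 and 8.0 under DMSO. Its groups also stood apart, by 1.62 (SE 0.43, adjusted p = 0.0281), and its other probe above background moved by 1.55. The canonical subunits did not pass the test: NFKB1 differed by 0.17, REL by 0.06 and RELA by 0.06, with adjusted p-values of 0.553, 0.703 and 0.794.

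Of the inhibitors and nuclear IkB proteins, only BCL3 passed in BT-549. BCL3, a nuclear IkB protein that works with subunit dimers at promoters, read 8.01, 7.80 and 7.66 under everolimus, against 8.76, 8.45 and 8.06 under DMSO. The everolimus arrays lay below the DMSO arrays without overlap, with 0.05 between the nearest 2 arrays. BCL3 fell by 0.60 (SE 0.17, adjusted p = 0.0371). NFKBIA, the IkB protein that captures RELA dimers and is itself an NF-kB target, averaged 10.21 ± 0.70 under everolimus and 10.21 ± 0.37 under DMSO (SD, n = 3 each). NFKBIB, NFKBIE and NFKBIZ differed by -0.07, -0.01 and -0.17, all with adjusted p-values of at least 0.809. The other probe of NFKBIB differed by -0.49. That probe read 6.53, 6.67 and 6.38 under everolimus, all at background, against 6.86, 7.0 and 7.20 under DMSO, without overlap.

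Among the feedback and adaptor genes, TNIP1 and TNFAIP3 encode ubiquitin-binding proteins that act together to restrain signalling. TNIP1 read 9.33, 10.35 and 10.51 under everolimus, against 9.23, 9.02 and 9.09 under DMSO. The groups did not overlap, but everolimus replicate 1 stood only 0.10 above the highest DMSO array. TNIP1 rose by 0.95 (SE 0.27, adjusted p = 0.0356). TNFAIP3 read 7.84, 8.22 and 7.80, against 7.01, 7.22 and 7.37 under DMSO, so that its everolimus arrays lay close together and above all DMSO arrays. It rose by 0.75 (SE 0.22, adjusted p = 0.0412), and with equal array medians it was not called. TRAF1, an adaptor of tumour necrosis factor receptors, read 7.12, 8.65 and 8.28, against 6.64, 7.09 and 7.17. Its groups overlapped through everolimus replicate 1, and it rose by 1.05 (SE 0.31, adjusted p = 0.0404), with 0.71 at its other probe. BIRC2, a ubiquitin ligase of the same receptor complexes, differed by 0.75 (adjusted p = 0.18), and its second probe went the other way, by -0.32. TNFAIP2 was at background in BT-549.

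**Figure D1:**
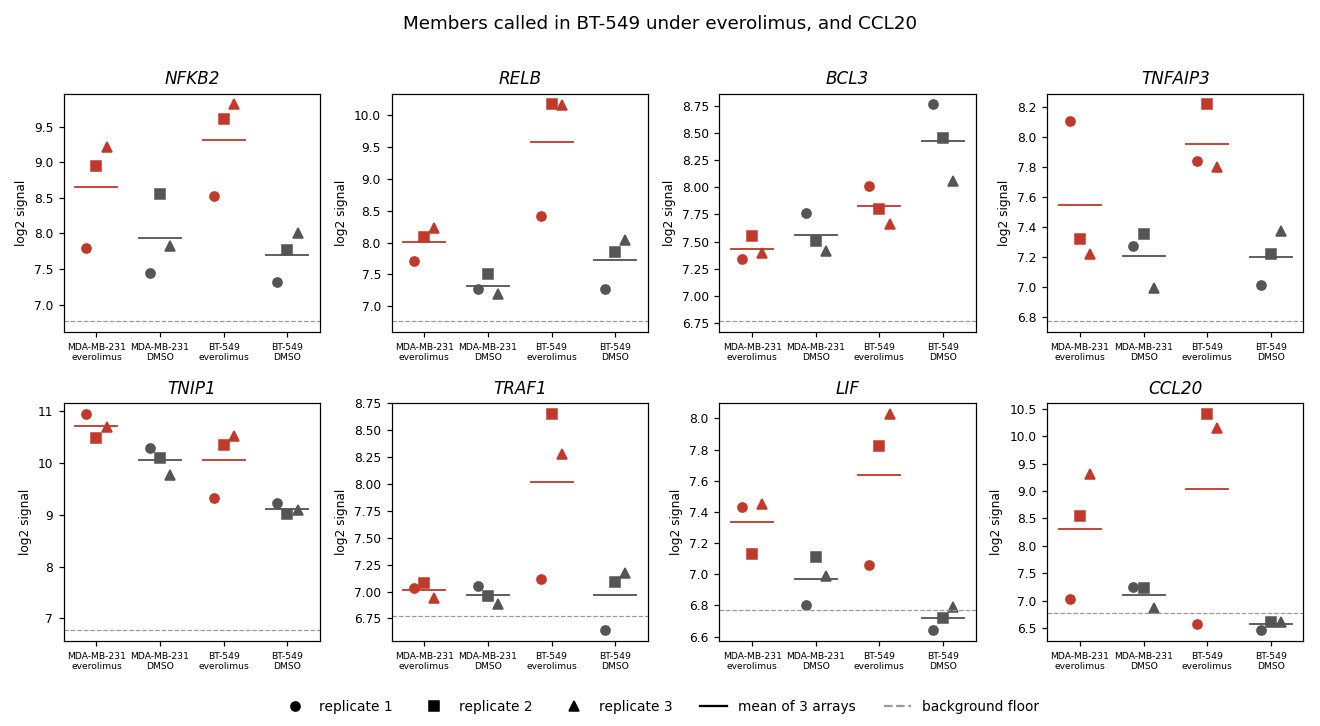
Log2 signal (y axes, a scale of its own for each gene) of the 7 members called in BT-549 and of CCL20, on each of 12 arrays; red marks everolimus, grey DMSO, the shapes are replicate numbers, bars are means of 3 arrays and the dashed line is the background floor of 6.77. In BT-549 the replicate 1 everolimus array lies nearest the DMSO arrays for RELB, NFKB2, TNIP1, TRAF1, LIF and CCL20, while the 3 TNFAIP3 arrays lie between 7.80 and 8.22.

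Of the cytokines, LIF, which signals through the receptor chain shared with IL6, read 7.06, 7.82 and 8.03 on BT-549 everolimus arrays, against 6.64, 6.72 and 6.79 on DMSO arrays. The groups stood apart, and LIF rose by 0.92 (SE 0.21, adjusted p = 0.0159) over DMSO values that lay around the floor. The 7 other cytokines tested did not pass. IL6, the inflammatory cytokine whose promoter is shown above, read 6.94, 10.46 and 10.33 under everolimus, against 6.68, 7.04 and 7.66 under DMSO. Replicates 2 and 3 thus read well above every DMSO array while replicate 1 read among them, and the difference of 2.12 (SE 0.84) had an adjusted p of 0.113. IL32 differed by 0.54 and IL11 by 0.25 (adjusted p = 0.189 and 0.582), both over DMSO values around the floor. IL1A and the probe used for CSF1 were at background in both BT-549 groups, and IL1B and the probe used for IL24 under DMSO.

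No chemokine passed in BT-549 over all 12 arrays. CXCL8, the ligand of CXCR1 and CXCR2 that draws neutrophils, read 7.58, 12.99 and 12.89 under everolimus, against 7.46, 8.76 and 9.44 under DMSO. CCL20, the ligand of CCR6, read 6.57, 10.41 and 10.14, against 6.46, 6.62 and 6.62, all at background under DMSO. In both genes 2 everolimus arrays lay far above the DMSO arrays and the third lay with them. The difference was 2.60 for CXCL8 (SE 1.16, adjusted p = 0.153), with 2.05 at its other probe, and CCL20 was at least 4.83-fold higher (adjusted p = 0.073). CCL5, a chemokine of T cells and monocytes, read 8.56, 11.11 and 10.82 under everolimus, against 7.75, 9.30 and 9.84 under DMSO, groups that overlap (1.2, adjusted p = 0.217). CCL2, the monocyte attractant, went the other way without overlap, at 7.52, 7.53 and 7.41, against 8.21, 8.43 and 8.72. Its difference of -0.97 (SE 0.58) had an adjusted p of 0.288, with a spread estimate shared with MDA-MB-231, where CCL2 varied more. CXCL1, CXCL2 and CXCL3, which share CXCR2 as receptor, differed by -0.26, 0.02 and -0.09 (adjusted p = 0.877, 0.981 and 0.646). CXCL3 was above the floor on only 4 of the 12 arrays, and on none of the MDA-MB-231 everolimus arrays.

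The 4 surface and enzyme targets also missed the threshold. MMP3, a matrix protease that activates others, read 6.50, 11.32 and 11.37 under everolimus, against 6.56, 6.72 and 6.84 under DMSO. PTGS2, the inducible cyclooxygenase of prostaglandin synthesis, read 6.65, 8.62 and 8.54, against 6.62, 6.63 and 6.83. MMP1, the interstitial collagenase, read 7.69, 10.72 and 10.47, against 7.41, 7.84 and 7.97. In all 3 genes the replicate 1 everolimus array sat within or below the DMSO range and the other 2 sat above it. The differences were 3.02 for MMP3, 1.24 for PTGS2 and 1.89 for MMP1, with adjusted p-values of 0.0626, 0.0663 and 0.171, and the other probe of PTGS2 differed by 0.38. The DMSO values of MMP3 and PTGS2 lay around the floor, so their sizes start near background. ICAM1, an adhesion molecule for leukocytes, differed by 0.65 (adjusted p = 0.217). CCL2, CCL20, CCL5, CXCL1, IL6 and MMP3 are given array by array as a choice made after their values were seen.

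**Figure D2:**
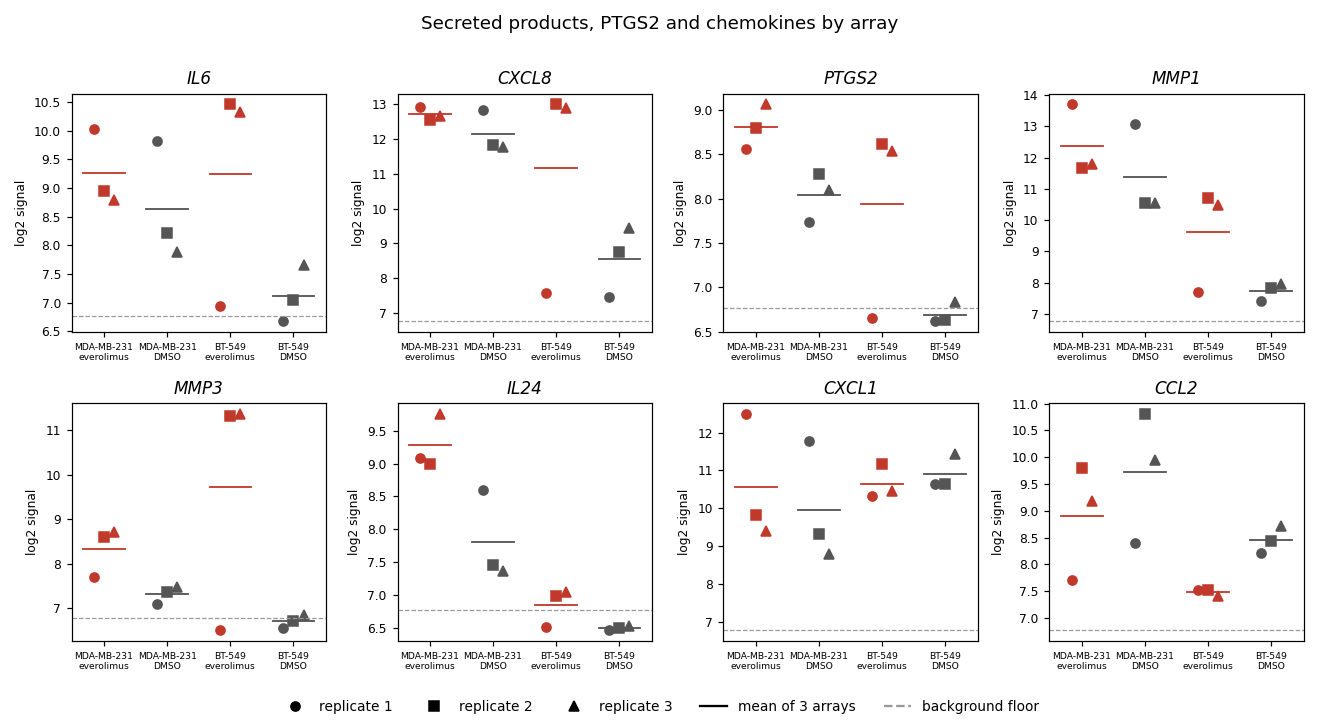
Log2 signal (y axes, a scale of its own for each gene) of 8 secreted or enzyme members on each of 12 arrays, marked as in the plot of the called members. In BT-549 the replicate 1 everolimus array of MMP3 reads 6.50 and the other 2 read 11.32 and 11.37, and in MDA-MB-231 the replicate 1 arrays of CXCL1 and MMP1 are high under both everolimus and DMSO.

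The position of 1 array recurred through the members. BT-549 everolimus replicate 1 was the lowest of its group for 24 of the 34 members, and for 44.2% of all genes tested. Over the members its deviations from the group mean had an SD of 1.00, against 0.516 and 0.510 for the other 2 everolimus arrays and 0.115 to 0.361 for the DMSO arrays. Groups that do not overlap were found for 6 members higher (LIF, NFKB1, NFKB2, RELB, TNFAIP3 and TNIP1), against 18.5% of all genes, and for 2 lower (BCL3 and CCL2), against 14.1%.

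Without that array limma called 17 members in BT-549, against 28% of all genes. Without the 4 replicate 1 arrays it called 19 of 34 (55.9%), against 38.2% of all genes: 17 higher, against 22.2%, and 2 lower, against 16.1%. The 7 members called over 12 arrays were all among the 19, joined by BIRC2, CCL2, CCL20, CCL5, CXCL2, CXCL8, ICAM1, IL32, IL6, MMP1, MMP3 and PTGS2. By role, that took in all 4 surface and enzyme targets, 4 of 7 chemokines higher and 1 lower, 3 of 8 cytokines, 4 of 5 feedback and adaptor genes and 2 of 5 subunits. The effects, with 2 arrays a group, were then 4.57 for MMP3, 3.84 for CXCL8, 3.05 for IL6, 2.69 for MMP1, 2.21 for RELB and 1.85 for PTGS2. The highest limma adjusted p among these 6 was 1.32e-05. The arrays left out were known to lie furthest from their group means, and 1 was the everolimus array nearest DMSO for these genes. Leaving them out lowers the spread and raised these effects, so the p-values are no separate support. The DMSO values of MMP3 and PTGS2 lay around the floor here too. CCL20 is given no size there, since its DMSO arrays were at background. With the calls on members, limma then also called VWF, CD68 and ITGAM higher among the endothelial and leukocyte markers, whose part was not tested. EPCAM, an epithelial marker, was then called higher in both lines, and its part was not tested either. CCL2 was then lower by 1.11 and CCL5 higher by 1.40 (limma adjusted p = 0.00897 and 0.000233). Other libraries moved the count the other way: limma called 0 members without everolimus replicate 3, against 7.31% of all genes, and RELB alone when DMSO replicate 1, DMSO replicate 2 or everolimus replicate 2 of BT-549 was left out (10.5%, 6.76% and 10.2% of all genes). It called 4 on leaving out DMSO replicate 3 of BT-549, DMSO replicate 2 of MDA-MB-231 or everolimus replicate 2 or 3 of MDA-MB-231 (12.4%, 14.9%, 13.6% and 13.7% of all genes).

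By gene, RELB was called in 11 of the 12 fits that leave out 1 array, with an adjusted p of 0.0527 without everolimus replicate 3. NFKB2 and LIF were called in 8 each, and their call was lost on leaving out replicate 1 or 2 of the BT-549 DMSO arrays or replicate 2 or 3 of the everolimus arrays (adjusted p up to 0.112 and 0.063). TNIP1 was called in 6 (up to 0.138), and lost on leaving out any BT-549 DMSO array, BT-549 everolimus replicate 2 or 3 or MDA-MB-231 everolimus replicate 3. BCL3 was called in 5 (up to 0.137), and lost on leaving out replicate 1 or 2 of the BT-549 DMSO arrays, replicate 2 or 3 of the everolimus arrays of either line, or MDA-MB-231 DMSO replicate 2. TNFAIP3 was called in 3, those without MDA-MB-231 everolimus replicate 1 or 3 or BT-549 everolimus replicate 1, and TRAF1 in 2, those without everolimus replicate 1 of either line (adjusted p otherwise up to 0.136 and 0.143). All 7 kept the direction of their effect in all 12 fits, with RELB at 1.56 to 2.43 and BCL3 at -0.78 to -0.43.

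**Figure D3:**
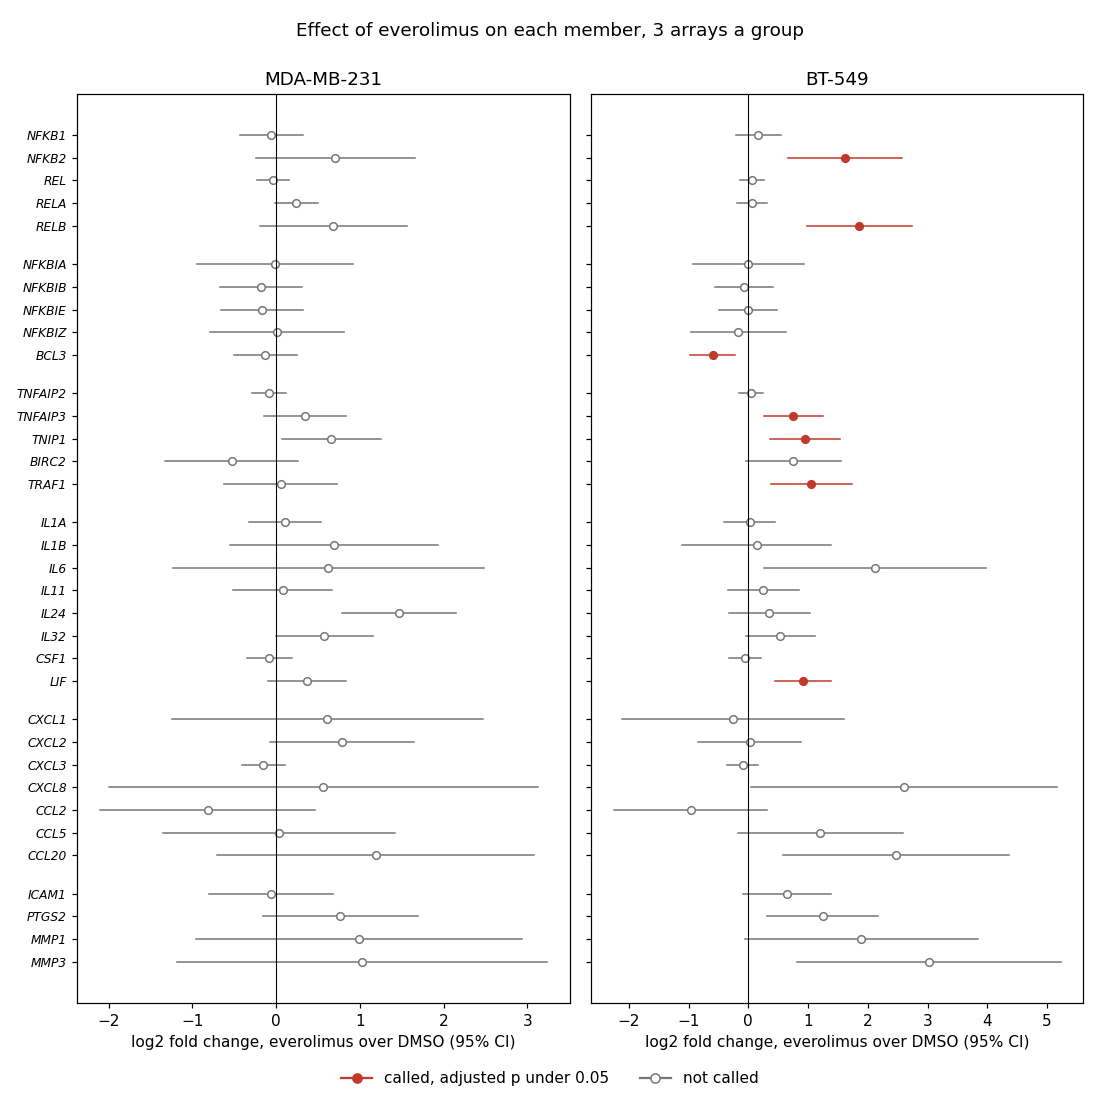
Log2 fold change of everolimus over DMSO with its 95% confidence interval (x axes) for the 34 tested members in MDA-MB-231 (left) and BT-549 (right), 3 arrays a group, over all 12 arrays; filled red marks an adjusted p under 0.05. RELB at 1.85 and NFKB2 at 1.62 are the highest of the 7 called in BT-549, and the intervals of MMP3, CXCL8, CCL20 and IL6 are wide.

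In MDA-MB-231 limma called none of the 34 members over all 12 arrays, against 0.153% of all genes (0.102% higher and 0.051% lower), so the line gave few calls of any kind. At an unadjusted p under 0.05 there were 2, IL24 and TNIP1, against 10.6% of all genes. The spread estimate was shared with BT-549, where several members varied more under everolimus. From the 6 MDA-MB-231 arrays alone, BIRC2, IL24, IL32, LIF, MMP3, PTGS2, RELA, RELB and TNIP1 had an unadjusted limma p under 0.05. None was called there (lowest adjusted p = 0.0979, for IL32), and the share of all genes at that unadjusted limit was not computed. The median member effect was 0.17, against -0.01 over all genes, and 22 of the 34 lay above 0. The groups stood apart for 8 members higher under everolimus (IL24, IL32, LIF, MMP3, PTGS2, RELA, RELB and TNIP1), against 8.63% of all genes, and for BIRC2 lower, against 9.94%.

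IL24, a cytokine of the IL10 family, read 9.08, 9.0 and 9.76 on MDA-MB-231 everolimus arrays, against 8.60, 7.46 and 7.37 on DMSO arrays. The arrays did not overlap, and its difference of 1.47 (SE 0.31) had an adjusted p of 0.0895, with 0.51 at its other probe. It was called only without MDA-MB-231 DMSO replicate 1, the highest DMSO array (1.86, adjusted p = 0.0286). TNIP1 read 10.95, 10.49 and 10.69, against 10.29, 10.10 and 9.76, a difference of 0.66 (adjusted p = 0.395). RELB read 7.71, 8.09 and 8.22, against 7.28, 7.50 and 7.19, again with no overlap, and NFKB2 read 7.79, 8.94 and 9.21, against 7.45, 8.55 and 7.83, with overlap. Their differences of 0.68 and 0.70 had adjusted p-values of 0.616 and 0.643, and 95% intervals of -0.19 to 1.56 and -0.25 to 1.65. Those intervals rest on a spread estimate shared with BT-549. From the 6 MDA-MB-231 arrays alone the SEs were 0.16 for RELB and 0.43 for NFKB2 (limma adjusted p = 0.15 and 0.559).

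Several secreted members of MDA-MB-231 varied more between replicate numbers than between treatments. CXCL1 read 12.50, 9.83 and 9.39 under everolimus, against 11.77, 9.32 and 8.80 under DMSO. Both replicate 1 arrays were thus high, and the difference between arrays of the same number was 0.73, 0.51 and 0.59. MMP1 read 13.70, 11.66 and 11.79, against 13.08, 10.56 and 10.54, and IL6 read 10.03, 8.95 and 8.80, against 9.82, 8.21 and 7.88, in the same pattern. IL1B, the inducer of much of this programme in other cells, ran opposite, at 7.59, 9.83 and 10.25, against 7.82, 9.03 and 8.74, with replicate 1 low in both groups. CCL2 did too, at 7.70, 9.80 and 9.19, against 8.39, 10.81 and 9.95. With the replicate number as a block CCL2 was the 1 member called, with an effect of -0.82 (limma adjusted p = 0.0476), against 0.672% of all genes.

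BCL3, which fell in BT-549, read 7.34, 7.55 and 7.40 in MDA-MB-231 under everolimus, against 7.76, 7.51 and 7.41, and TRAF1 read 7.03, 7.08 and 6.94, against 7.05, 6.96 and 6.88. Neither pair of groups stood apart. TNFAIP3 read 8.11, 7.32 and 7.22, against 7.27, 7.35 and 6.99, where 1 everolimus array was high. LIF read 7.43, 7.13 and 7.45, against 6.80, 7.11 and 6.99, all everolimus arrays above all DMSO arrays by as little as 0.02. CXCL8 read 12.91, 12.54 and 12.67, against 12.83, 11.82 and 11.78, and CCL20 read 7.04, 8.55 and 9.31, against 7.25, 7.23 and 6.86. For CXCL8 DMSO replicate 1 lay among the everolimus arrays, and for CCL20 everolimus replicate 1 lay among the DMSO arrays. PTGS2 read 8.56, 8.80 and 9.06, against 7.74, 8.28 and 8.10, and MMP3 read 7.70, 8.59 and 8.71, against 7.09, 7.36 and 7.48. Both were without overlap, with adjusted p-values of 0.574 and 0.839. Their spread estimate was shared with BT-549, where both varied more under everolimus. From the 6 MDA-MB-231 arrays alone the SEs were 0.18 and 0.27, and the limma adjusted p-values 0.16 and 0.194.

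Without the 4 replicate 1 arrays limma called 14 of the MDA-MB-231 effects on members (41.2%), and 6.85% of those on all genes. Higher were 13, against 3.53%: CCL20, CXCL2, CXCL8, IL1B, IL24, IL32, IL6, MMP1, MMP3, NFKB2, PTGS2, RELB and TNIP1. BIRC2 was lower, against 3.32%. The effects ran from 0.50 for IL32 to 1.97 for IL24, with CCL20 at 1.89 (SE 0.22, adjusted p = 0.00333), MMP3 at 1.23 (SE 0.10, adjusted p = 0.000856) and RELB at 0.81 (SE 0.13, adjusted p = 0.00867). Of these 14, the members CCL20, CXCL2, CXCL8, IL32, IL6, MMP1, MMP3, NFKB2, PTGS2, RELB and TNIP1 were also called higher in BT-549 without those arrays, while BIRC2 was called higher there, at the brighter of its probes. Over all arrays its other probe differed by 0.02 in MDA-MB-231 and by -0.32 in BT-549. With 2 arrays left in a group, these calls rest on spread pooled over the 4 groups, after arrays known to lie furthest from their group means were left out. For CCL20, IL1B and IL24 the BT-549 DMSO group was at background and added little spread, which lowers their SEs and p-values.

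**Figure D4:**
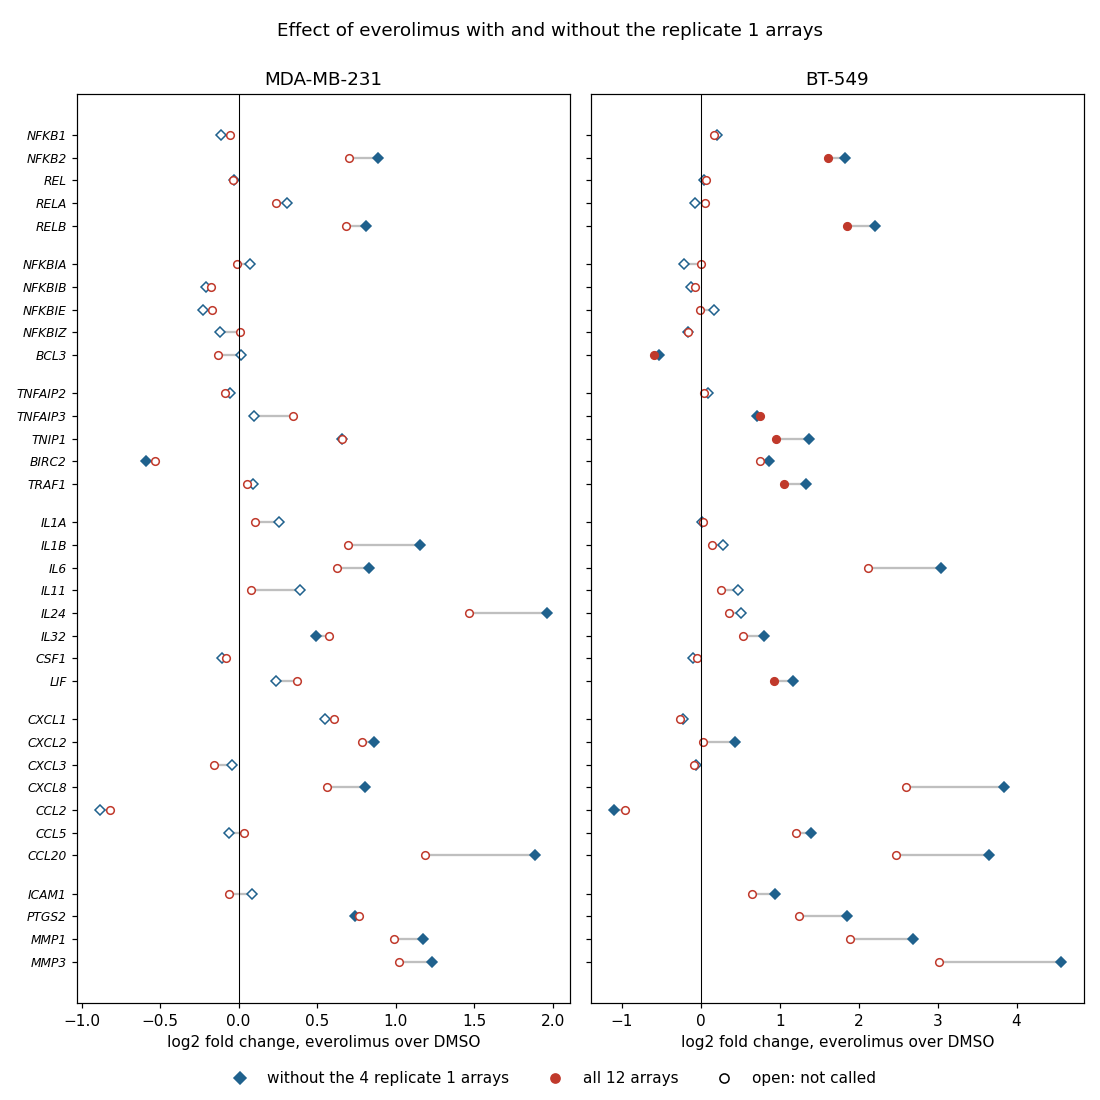
Log2 fold change of everolimus over DMSO (x axes, on a scale of its own for each line) for each tested member in MDA-MB-231 (left) and BT-549 (right), without the 4 replicate 1 arrays (blue diamonds) and over all 12 arrays (red circles); filled symbols are called at an adjusted p under 0.05. In BT-549 MMP3 (4.57 against 3.02), CXCL8 (3.84 against 2.60) and IL6 (3.05 against 2.12) move far and BCL3 and TNFAIP3 barely move; CCL20, IL1B and IL24 are drawn at fitted values there although their DMSO arrays were at background.

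Whether the effect of everolimus differed between the lines was tested as the effect in BT-549 minus that in MDA-MB-231. Limma called 0 of the 34 members, against 0.638% of all genes (0.315% higher and 0.323% lower). At an unadjusted p under 0.05 there were 3, against 15.7% of all genes: BIRC2 (difference 1.29, adjusted p = 0.251), TRAF1 (1.00, adjusted p = 0.301) and IL24, with no size given because its BT-549 DMSO arrays were at background (adjusted p = 0.242). The BIRC2 difference was 0.47 as the mean of its 2 probes. For RELB the difference was 1.17 with a 95% interval of -0.07 to 2.41, and for NFKB2 it was 0.91 with an interval of -0.43 to 2.26. MMP3 differed by 2.00 (-1.13 to 5.13), CXCL8 by 2.04 (-1.58 to 5.66), and TNIP1 by 0.29 (-0.55 to 1.13). Differences of several-fold lay within these intervals, so a rise in 1 line and no call in the other does not show that the lines responded differently. Without BT-549 everolimus replicate 1 limma called 10 members, against 10.4% of all genes: BIRC2, CCL20, CXCL8, ICAM1, IL6, LIF, MMP3, PTGS2, RELB and TRAF1. Without all 4 replicate 1 arrays it called 14, against 19.9% of all genes. Of these, 12 had the more positive effect in BT-549, against 12.4% of all genes, with MMP3 at 3.34 and CXCL8 at 3.04 the furthest. IL1B and IL24 had the more negative one, against 7.53%, but their size is not given, since both were at background in BT-549 under DMSO.

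Under DMSO alone, the cytokines IL11, IL1A, IL1B and IL24, the chemokine CXCL8, the enzymes MMP1 and PTGS2 and the signalling regulators TNIP1, TNFAIP2 and NFKBIE were lower in BT-549 than in MDA-MB-231. Limma called 11 of the 34 members (32.4%), close to the 30.4% of all genes. Lower calls made up 10 of the 11, against 15.5% of all genes, and BCL3 was the higher one, against 14.9%. At an unadjusted p under 0.05 there were 12 members, against 41.5% of all genes. The median member difference was -0.24, against -0.02 over all genes. Groups without overlap numbered 15 lower in BT-549, against 25% of all genes, and 2 higher, BCL3 and CCL5, against 22.9%.

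IL11, a cytokine of the IL6 family, read 6.78, 6.50 and 6.59 in BT-549, against 9.77, 10.09 and 9.41 in MDA-MB-231. The lines stood well apart, by -3.13 (SE 0.27, adjusted p = 1.1e-05), and the call held in all 12 fits without 1 array. The BT-549 values of IL11 lay around the floor, so this size starts near background. MMP1 read 7.41, 7.84 and 7.97, against 13.08, 10.56 and 10.54 (-3.65, SE 0.89, adjusted p = 0.00984), and was also called in all 12 fits. CXCL8 read 7.46, 8.76 and 9.44, against 12.83, 11.82 and 11.78 (-3.59, SE 1.16, adjusted p = 0.0373), a gap of over 2 between the nearest arrays. That call was kept in 5 of the 12 fits, and lost on leaving out any MDA-MB-231 DMSO array, replicate 1 or 2 of the BT-549 DMSO arrays or replicate 2 or 3 of the MDA-MB-231 everolimus arrays (adjusted p up to 0.127).

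For IL1A, IL1B, IL24 and TNFAIP2 the probe was at background in BT-549, so the difference is a bound. IL1B read 6.65, 6.57 and 6.75 in BT-549, against 7.82, 9.03 and 8.74 in MDA-MB-231, at least 3.39-fold lower (limma adjusted p = 0.0273). IL24 read 6.46, 6.49 and 6.53, against 8.60, 7.46 and 7.37, at least 2.06-fold lower (0.00818), and IL1A read 6.53, 6.55 and 6.46, against 8.13, 7.38 and 7.27, at least 1.77-fold lower (0.00176). TNFAIP2 was at least 1.31-fold lower (0.000647). These 4 genes thus gave little room to measure a fall in BT-549. PTGS2 was lower by 1.35, TNIP1 by 0.94 and NFKBIE, an IkB protein, by 0.78 (limma adjusted p = 0.032, 0.0223 and 0.0212). BCL3 was higher in BT-549 by 0.86 (adjusted p = 0.00335), called in all 12 fits. The subunits RELB, NFKB2, RELA, REL and NFKB1 differed between the lines by -0.25 to 0.40, with adjusted p-values of 0.378 to 0.935.

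The calls of IL1B and PTGS2 between the lines were lost on leaving out any BT-549 DMSO array or replicate 2 or 3 of the MDA-MB-231 DMSO arrays (adjusted p up to 0.0963 and 0.099). That of NFKBIE was lost on leaving out any BT-549 DMSO array or MDA-MB-231 DMSO replicate 1, and that of TNIP1 on leaving out replicate 2 or 3 of the BT-549 DMSO arrays or replicate 1 or 2 of the MDA-MB-231 DMSO arrays (up to 0.0724 and 0.0731). The count was 6 without BT-549 DMSO replicate 2 (21.6% of all genes), 7 without BT-549 DMSO replicate 3 (27% of all genes) or MDA-MB-231 DMSO replicate 2 (23.1%), and 19 without the 4 replicate 1 arrays (14 lower and 5 higher), where all genes gave 45.5% (23.9% lower and 21.6% higher). CXCL1 is a case where replicate 1 decides: it read 10.65, 10.63 and 11.44 in BT-549, against 11.77, 9.32 and 8.80 in MDA-MB-231. It was not called over all arrays (0.94, adjusted p = 0.435), and was higher by 1.98 without the replicate 1 arrays (adjusted p = 0.000526).

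**Figure D5:**
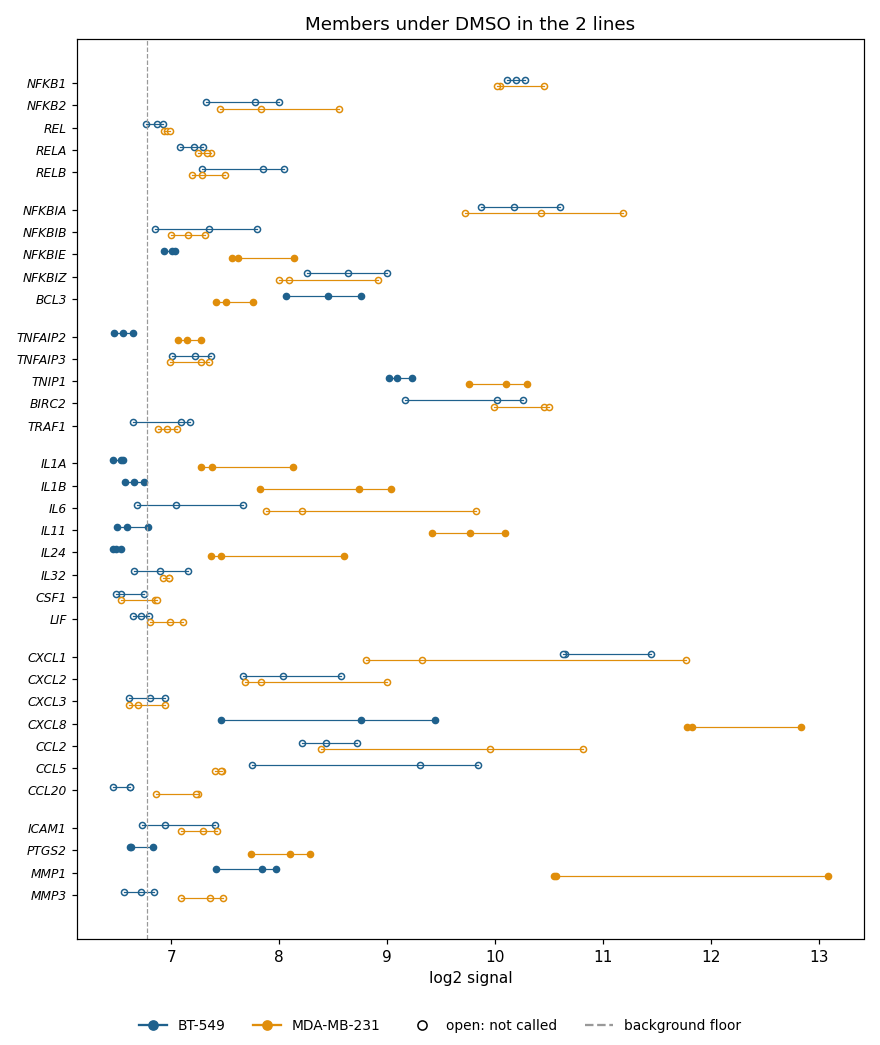
Log2 signal under DMSO (x axis) of each tested member on the 3 BT-549 arrays (blue) and the 3 MDA-MB-231 arrays (orange); filled points are members called between the lines and the dashed line is the background floor of 6.77. IL11, MMP1 and CXCL8 lie furthest apart, and the 3 BT-549 points of IL1A, IL1B, IL24 and TNFAIP2 lie left of the floor.

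Other genes of the pathway were read from 5 lists drawn up from general knowledge. In BT-549 limma called 4 of 19 tested receptors and adaptors, 5 of 27 kinases and ubiquitin enzymes, 2 of 26 further NF-kB targets, 2 of 16 further cytokines and chemokines and 1 of 12 receptors of the member ligands with their signal carriers. These shares stand beside 16.8% of all genes, and the list medians of -0.02 to 0.25 beside a median of 0.04 over all genes. In MDA-MB-231 it called none in any list. Without the 4 replicate 1 arrays the higher and lower calls in BT-549 were 5 and 3, 4 and 3, 11 and 3, 5 and 1, and 3 and 2 in the same order of lists, beside 22.2% and 16.1% of all genes. In MDA-MB-231 IRAK2, LTBR, CEBPB and IER3 were then called higher and UBE2N, MIF and HMGB1 lower.

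IRAK2, a kinase of interleukin-1 and Toll-like receptor complexes, read 8.72, 10.30 and 10.14 on BT-549 everolimus arrays, against 7.29, 7.99 and 8.31 on DMSO arrays. It rose by 1.86 (limma adjusted p = 0.00886), with replicate 1 lowest in both groups and no overlap. IL1R1, the interleukin-1 receptor, fell by 0.82 (adjusted p = 0.00424), at 7.38, 6.81 and 6.92, against 7.91, 7.84 and 7.82. TRAF5 and LTBR, an adaptor and a receptor of the tumour necrosis factor family, rose by 0.43 and 0.53 (adjusted p = 0.0117 and 0.047), and LTBR was not called with equal array medians (adjusted p = 0.0678). RNF31 and RBCK1, subunits of the complex that builds linear ubiquitin chains for NF-kB signalling, rose by 1.08 and 0.74 (0.00394 and 0.00251), and the ubiquitin ligase ITCH by 0.52 (0.00772). IKBKG, the regulatory subunit of the IkB kinase complex that those chains bind, fell by 0.45 (0.0125), and TAX1BP1, a partner of the TNFAIP3 product, by 0.46 (0.03).

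CFLAR, the inhibitor of caspase-8 activation known as an NF-kB target, read 8.33, 8.59 and 9.09 on BT-549 everolimus arrays, against 6.99, 7.10 and 7.41 on DMSO arrays. It rose by 1.5 (limma adjusted p = 0.00106), and here replicate 1 did not stand with the DMSO arrays. IRF1, an interferon-regulated factor, fell by 0.74 (0.0145). CXCL16 rose by 0.69 over DMSO values around the floor (0.0175), and MIF fell by 0.54 (0.0147). PTGER4, a receptor of the prostaglandin that PTGS2 helps to make, read 10.19, 9.53 and 9.89, against 8.07, 8.81 and 9.26, and rose by 1.16 (0.0134). Its replicate 1 everolimus array was the highest of the 3, unlike that of PTGS2.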

How the data were processed

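Total RNA of 12 samples was read on Illumina bead arrays after mirVana extraction, TotalPrep amplification and Cy3 staining, per the labels' protocols. Values for 47230 probes came as log2 signals in the table that the authors deposited, and were already quantile normalized between arrays, as shown by the equal quantiles of its columns. The log base was inferred from the values, as 2 raised to the highest (14.56) gives 24154, within a 16-bit scanner's range. The software used is not given in the sources used here. A second table with 12 value columns under bare numbers was not used.

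Probes were named by the platform annotation (30113 with 1 symbol, 8 with several, 17109 not listed). A probe was kept with at least 3 of 12 arrays above the floor of 6.77, the background peak (6.55) plus 3 SDs (0.0724 each), in place of a detection filter. The brightest kept probe stood for a gene. Limma 3.58.1 (R 4.3.3) fitted 4 group means over all 12 arrays, and p-values were adjusted by Benjamini-Hochberg over 11764 genes, called under 0.05. Where no array of a group reached the floor, the fold is a bound against the floor. The number of arrays and the spread between them limit the precision. Standard errors of an everolimus effect ran from 0.09 (REL, close to the floor) to 1.16 (CXCL8).

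The members, lists, tests and alternatives were chosen with earlier results of these data known. Members called in any comparison (between the lines, at 2-fold or more) are given array by array, the others by summaries. Of each pathway list, up to 4 called genes with the smallest p are named, and TAX1BP1 was added after its values were seen. The pipeline was tested on simulated data. Replicate numbers come from the labels, which do not say what they share. Deviations of same-numbered arrays from their group means correlated at 0.735, 0.544 and 0.418 in MDA-MB-231, and at 0.5, 0.079 and 0.411 in BT-549. Under a limit of 0.1 the numbers were taken to pair the arrays of MDA-MB-231 and not those of BT-549. In MDA-MB-231, however, everolimus replicate 3 correlated more with DMSO replicate 2 (0.546), and everolimus replicate 2 correlated with DMSO replicate 3 at 0.36. These values set replicate 1 apart and do not clearly pair replicates 2 and 3. The main test used no pairing in either line, and the replicate number entered only as a block in an alternative fit. Promoter windows are from RefSeq.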

Additional observations from a re-analysis of the deposited data

Results flagged for a closer look

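The everolimus effect on CFLAR differed between the lines by a test of the difference itself: it was larger by 1.42 on the log2 scale in BT-549 than in MDA-MB-231 (limma adjusted p = 0.0448). CFLAR read 8.33, 8.59 and 9.09 under everolimus in BT-549, against 6.99, 7.10 and 7.41 under DMSO. In MDA-MB-231 it read 7.70, 7.81 and 7.80 under everolimus, against 7.49, 7.74 and 7.83 under DMSO. The BT-549 groups lay more than 0.9 apart and the MDA-MB-231 groups overlapped. The difference was called in 3 of the 12 fits that leave out 1 array, those without MDA-MB-231 DMSO replicate 1, BT-549 DMSO replicate 3 or BT-549 everolimus replicate 1 (range 1.21 to 1.59, highest adjusted p = 0.148). CFLAR is no member of the set. No member met this test over all 12 arrays.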

How the results depend on the processing

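The number of members called depended on the arrays more than on the filters. In BT-549 the 7 calls became 18 with the replicate block (27.9% of all genes), 19 with array weights (51% of all genes) or without the 4 replicate 1 arrays, 3 from the line's own 6 arrays (CCL2, NFKB2 and TNFAIP3; 9.9% of all genes), 2 with no floor (LIF and RELB; 8.69%), and 0 to 17 without 1 array. In MDA-MB-231 the 0 calls became 1 with the block (0.672% of all genes), 7 with array weights (8.79% of all genes), 14 without the replicate 1 arrays, and 0 to 1 without 1 array. For the difference between the effects, 0 became 2 with the block (BIRC2 and CCL5; 6.01% of all genes), 15 with array weights (29.9% of all genes), 14 without the replicate 1 arrays, and 0 to 10 without 1 array. Between the lines under DMSO, 11 became 19 without the replicate 1 arrays and 6 to 13 without 1 array. A stricter floor, a subtracted background peak, equal array medians, a trended robust prior and the mean of a gene's probes kept each count within 1.5 times. The numbers were not taken to pair the BT-549 arrays, so the block there is a value only. The MDA-MB-231 effect of BCL3, -0.13 and not called, was 0.015 without the replicate 1 arrays (adjusted p = 0.973). With 3 arrays a group, differences within the printed intervals were not excluded.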
